A study of Mus musculus with 4 samples.

Results

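The genome of mouse sperm is methylated at most CG sites, but windows dense in CG sites are nearly all free of methylation. Described here are the exceptions: 418 autosomal windows of 200 bp that each hold 15 or more CG sites and had a mean methylation level over 25% in sperm. They are 1.22% of the 34386 windows of that density, and 229337 windows of any density were kept in all. A window was kept when at least 3 of its CG sites had 10 or more reads in each of the 4 libraries, and its level is the mean over its kept sites and then over the libraries. The 418 windows were chosen by their measured level, the mean of all 4 libraries, so the level is given here as a description with no test. The other 33968 dense windows, at most 25% methylated, serve as the contrast.

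DNA methylation was measured by targeted genome bisulfite sequencing (TGBS), in which capture probes enrich chosen regions and bisulfite converts unmethylated cytosines, so that the methylated share of the reads gives the level of a CG site. All libraries came from wild-type C57BL/6 male mice of 11 to 12 weeks, with no further treatment or altered gene. Swim-up sperm (2 libraries) are the motile cells that swim out into medium from the caudal epididymis and vas deferens. HRCS (2 libraries), the histone replacement-completed sperm, are dense heads: tails were broken off total sperm with gentle ultrasound, and the pellet of a spin in 82% Percoll was kept. Each library is a bulk preparation of many cells, so a level of 50% can come from alleles, cells or animals that differ. Nothing in the labels says that libraries of a fraction came from separate animals, and p-values then measure only the spread between these libraries.

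Methylation of the cytosine in CG is copied to the new strand when DNA is replicated and is erased and rebuilt in the germ line, and in prospermatogonia most of the genome is methylated anew. CpG islands, stretches dense in CG that often lie at gene promoters, are left out of this wave in general. Methylated CG tends to be lost over evolutionary time by deamination to TG, so that windows that are both dense and methylated in the germ line are few. Islands inside gene bodies are known in several tissues to be methylated more often than islands at promoters.

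Sequences of 9 dense windows are printed because each shows one side of a contrast that the values below return to, and they were picked after their values were seen. They were read from the RefSeq genome GRCm38, on its plus strand, at the place where the order of distances between the CG sites of the window was found once, and every CG is in capitals. The first pair are a methylated window inside the gene Plec (files: mm9 chr15:76010001-76010200; GRCm38 chr15:76179571-76179770) and a window at one of its promoters (mm9 chr15:76060001-76060200; GRCm38 chr15:76229571-76229770), with 17 and 19 CG sites.
Plec methylated window: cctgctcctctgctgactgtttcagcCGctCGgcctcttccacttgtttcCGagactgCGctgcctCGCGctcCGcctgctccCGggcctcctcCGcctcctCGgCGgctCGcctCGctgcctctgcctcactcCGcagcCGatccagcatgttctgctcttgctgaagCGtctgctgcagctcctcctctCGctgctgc
Plec promoter window: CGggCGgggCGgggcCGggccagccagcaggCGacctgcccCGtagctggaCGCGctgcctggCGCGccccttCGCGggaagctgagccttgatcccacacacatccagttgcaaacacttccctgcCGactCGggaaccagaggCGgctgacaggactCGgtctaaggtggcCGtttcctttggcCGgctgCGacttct
The next pair lie in coding exons of Zbtb7a, at mm9 chr10:80606801-80607000 (GRCm38 chr10:81144056-81144255, 18 CG sites, 17 of them whole within the printed bases) and at mm9 chr10:80610801-80611000 (GRCm38 chr10:81148056-81148255, 19 sites).
Zbtb7a methylated window: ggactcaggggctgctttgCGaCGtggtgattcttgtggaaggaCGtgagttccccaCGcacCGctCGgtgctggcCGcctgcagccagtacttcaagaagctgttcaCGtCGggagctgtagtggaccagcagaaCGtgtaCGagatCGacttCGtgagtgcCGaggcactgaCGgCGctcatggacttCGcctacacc
Zbtb7a low window: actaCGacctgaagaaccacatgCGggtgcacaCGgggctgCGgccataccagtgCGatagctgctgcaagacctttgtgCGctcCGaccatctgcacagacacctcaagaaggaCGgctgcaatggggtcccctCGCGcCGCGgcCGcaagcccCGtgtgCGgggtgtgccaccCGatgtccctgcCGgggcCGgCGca
The third pair lie in coding exons of B4galnt4, at mm9 chr7:148254401-148254600 (GRCm38 chr7:141068502-141068701, 15 sites) and mm9 chr7:148256401-148256600 (GRCm38 chr7:141070502-141070701, 18 sites). The first of them had the smallest p of all members between the fractions.
B4galnt4 methylated window: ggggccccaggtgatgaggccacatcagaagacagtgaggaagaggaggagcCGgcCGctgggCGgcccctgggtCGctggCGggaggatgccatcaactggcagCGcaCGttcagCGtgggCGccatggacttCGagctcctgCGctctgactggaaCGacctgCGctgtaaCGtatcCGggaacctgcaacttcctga
B4galnt4 low window: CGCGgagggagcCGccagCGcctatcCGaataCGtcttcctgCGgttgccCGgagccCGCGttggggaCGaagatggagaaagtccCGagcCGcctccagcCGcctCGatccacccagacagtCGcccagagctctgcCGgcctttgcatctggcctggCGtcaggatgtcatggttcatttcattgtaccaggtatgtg
The last 3 are windows over named loci that were methylated: inside Prm1 near its start (mm9 chr16:10796601-10796800; GRCm38 chr16:10796508-10796707, 15 sites), in Dlk1 (mm9 chr12:110698001-110698200; GRCm38 chr12:109459791-109459990, 17 sites) and over the processed pseudogene Rps12-ps9 (mm9 chr8:125730401-125730600; GRCm38 chr8:123206501-123206700, 19 sites).
Prm1 window: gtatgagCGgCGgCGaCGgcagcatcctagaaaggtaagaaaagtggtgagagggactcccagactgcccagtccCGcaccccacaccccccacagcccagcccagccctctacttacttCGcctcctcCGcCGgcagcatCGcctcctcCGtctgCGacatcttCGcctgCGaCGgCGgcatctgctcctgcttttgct
Dlk1 window: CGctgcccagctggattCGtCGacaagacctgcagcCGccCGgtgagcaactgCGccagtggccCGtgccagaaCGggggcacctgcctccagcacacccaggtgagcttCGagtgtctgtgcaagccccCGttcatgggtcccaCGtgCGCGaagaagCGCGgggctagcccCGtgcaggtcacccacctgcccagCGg
Rps12-ps9 window: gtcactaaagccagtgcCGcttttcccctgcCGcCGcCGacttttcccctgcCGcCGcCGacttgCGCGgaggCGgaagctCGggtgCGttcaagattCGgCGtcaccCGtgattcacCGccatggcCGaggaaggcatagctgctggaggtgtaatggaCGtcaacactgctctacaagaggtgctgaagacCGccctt

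Dense windows fell into a large group near 0% and a small, spread group above it. Of the 34386 dense windows, 33573 had a level under 5%, and the median of those at most 25% was 1.07%. The 418 methylated dense windows had a median of 78.4%: 119 lay over 25% and up to 50%, 78 up to 75%, 56 up to 90%, and 165 (39.5%) over 90%. Windows over 25% with fewer than 15 CG sites, 98298 in number, had a median of 95.2%, and 81.3% of them were over 75% against 52.9% of the methylated dense windows. Averaged over the 418 windows, swim-up replicates 1 and 2 stood at 72.0% and 69.7%, HRCS replicates 1 and 2 at 71.0% and 70.4%.

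**Figure D1:**
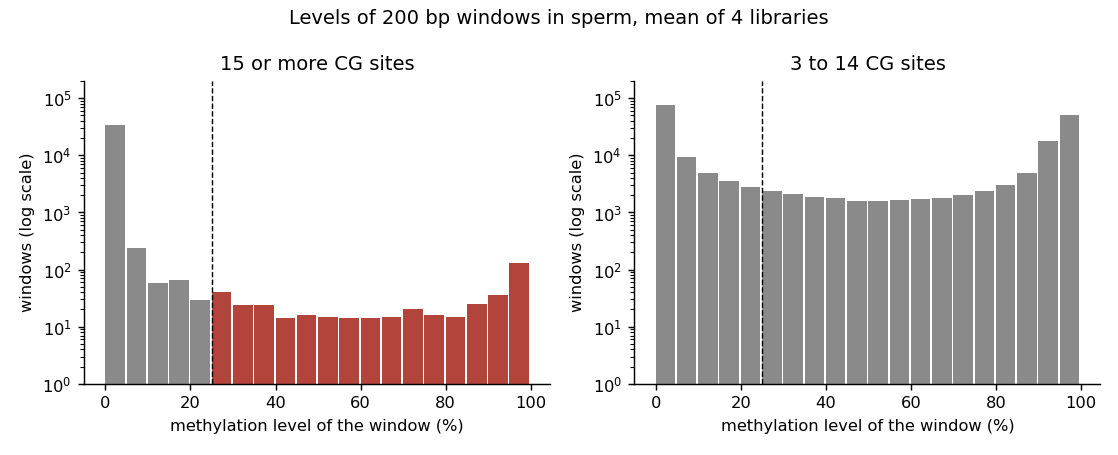
Number of 200 bp windows (y axis, log scale) by methylation level in steps of 5 percentage points (x axis, mean of 4 libraries), for dense windows with 15 or more CG sites and for windows with fewer. Dense windows peak under 5% (33573 windows) and rise again to 129 windows at 95 to 100%.

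The denser the window, the rarer was methylation. Over 25% lay 362 of the 16155 windows with 15 to 19 CG sites (2.24%), 46 of the 10388 with 20 to 24 (0.443%) and 10 of the 7843 with 25 to 48 (0.128%). The methylated window with the most CG sites, 37 of them, overlaps the start site that Tmem267 and 3110070M22Rik share (chr13:120277201-120277400, swim-up sperm 64.7% and 64.8%, HRCS 53.6% and 55.2%). The next in density were 2 intergenic or unplaced windows on chromosome 12 (chr12:19960201-19960400 with 32 sites at 30.0%, chr12:23979201-23979400 with 27 at 36.6%), the pseudogene Gm14494 (28 sites, 75.6%) and a coding exon of Scaf1 (25 sites, 74.3%), which encodes a protein related to splicing factors. The median GC content of the methylated windows was 64.5% against 69% in the other dense windows, and the median ratio of observed to expected CG was 0.82 against 0.886.

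Each read adds a call at every CG site that it covers. The calls behind each window ranged from 30 to 23718 per library. Median coverage was 26.7 reads per kept site, near the 26.1 of the other dense windows. In 220 windows every listed CG site was kept, and in 85 (20.3%) fewer than 10 were, against 13.7% of the other dense windows. The libraries held 71379227 to 89403347 calls. PCR reads without molecular identifiers are not independent molecules, so depth speaks of counting error only.

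The ends of the range were as follows. The highest level was that of a coding exon of the kinase gene Sik1 (chr17:31988001-31988200), with 100%, 99.3%, 97.3% and 98.9% in swim-up sperm replicates 1 and 2 and HRCS replicates 1 and 2, from 5 kept sites. The 9 that followed, down to 98.0%, lay in Tbc1d31, Atxn7l1, U2af2 (a splicing factor), Plec (2 windows), Fat1, Ttll1 (a tubulin polyglutamylase), C1qb (a chain of complement C1q) and Jag2 (a Notch ligand). Those of Tbc1d31, Atxn7l1, U2af2 and Ttll1 had 3 to 5 kept sites, and Plec, Fat1, C1qb and Jag2 had 13 to 15. At the other end, just inside the threshold, were coding exon windows of Irf2bpl (25.1%) and of the adaptor gene Sh2b2 (25.1%), an intron window of Tbx3os2 (25.2%) and intergenic windows at chr8:19785001-19785200 (25.1%) and chr7:17357201-17357400 (25.3%). Just outside were intergenic windows at chr6:90183201-90183400 (24.7%) and chr12:20077601-20077800 (24.6%) and windows of Tmem198 (24.3%), Gm1943 (24.1%) and Gm7143 (23.97%). Libraries of the windows on either side of the threshold overlapped it, as in Irf2bpl (29.9%, 23.999%, 24.1% and 22.3%) and Tmem198 (31.4%, 26.9%, 17.3% and 21.7%).

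Most methylated dense windows lay inside genes and away from promoters. In GRCm38, 409 of the 418 were found at a single place, as were 33841 of the other dense windows, and each was classed by the curated RefSeq transcripts there. Where a window met several classes, promoter came first and coding exon second. Coding sequence within 1000 bp of a start is thus counted as promoter. Coding exons held 254 of the 409 (62.1%) against 7.72% of the other dense windows, and promoters, meaning within 1000 bp of a transcript start, held 23 (5.62%) against 82.2%. Intergenic sequence held 50 (12.2% against 3.75%), introns 35 (8.56% against 2.97%) and pseudogenes 35 (8.56% against 0.845%). Non-coding exons or untranslated parts held 6, and 3 each lay within 5000 bp upstream or downstream of a gene. With all RefSeq models, predicted ones included, the coding share was 61.1% and the promoter share 10.3%. Seen from the features, 8.87% of dense coding windows, all over 1000 bp from a start, were methylated. So were 10.9% of dense windows in pseudogenes and 0.0826% of those at promoters.

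The level, as a description, varied by feature. The median was 91.1% in introns and 87.7% in coding exons, where 151 of 254 windows were over 75%. It was 53.8% in pseudogenes, 53.0% in intergenic sequence and 49.1% at promoters, where 5 of 23 were over 75%. Of the coding windows, 78 lay in the last exon of a transcript. The distance to the nearest start site differed as well, and its median was 11772 bp for methylated and 162 bp for the other dense windows. Within 1000 bp of a start, 23 of 27840 dense windows were methylated (0.0826%), from there to 5000 bp 68 of 2842 (2.39%), to 20000 bp 170 of 1797 (9.46%), and farther out 148 of 1771 (8.36%).

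**Figure D2:**
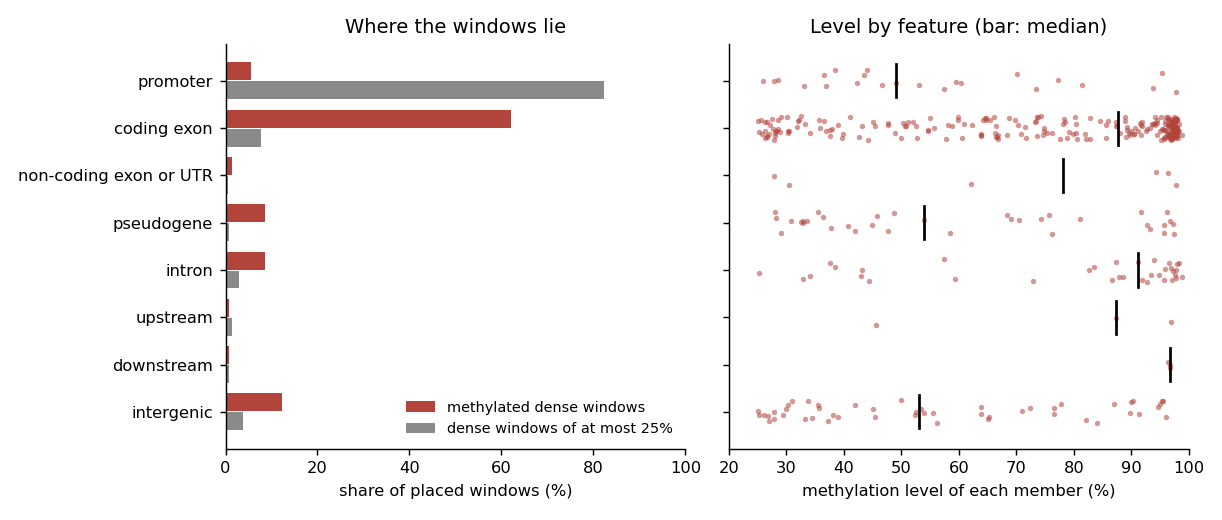
Left, share (%) of placed windows by annotation in GRCm38 for methylated dense windows and for dense windows of at most 25%. Right, methylation level (%) of each methylated window by annotation, with a bar at the median, which is 87.7% for coding exons and 49.1% for promoters.

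Genes with methylated coding windows were also read at their promoters. Coding windows of 197 genes were methylated, 37 of these genes had more than 1 such window, and 174 also had a dense window at a promoter. In all 174 genes every one of the promoter windows, 539 when counted gene by gene, was at most 25%, and the highest stood at 5.88%. Genes that overlap, such as Clk2 and Gm45927, share windows and are each counted, so distinct windows are fewer. Over all genes 0.0826% of dense promoter windows were methylated, so the absence of any among the 539 is near that background and not particular to these genes. The median over genes was 1.12% at the promoter and 83.3% in the methylated coding windows, and the smallest difference within a gene was 24.04 percentage points, where the level of the coding windows is the one that chose them. In 34 of the 197 genes another dense coding window was at most 25%, so exons of 1 gene could stand on opposite sides.

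Plec, which encodes plectin, a large linker of intermediate filaments to the cytoskeleton, had the most, with 10 methylated windows at 96.3% to 98.3%, all in coding exons 47608 to 57008 bp from the start of the gene. The printed methylated window had 98.4%, 98.3%, 98.3% and 96.8% in swim-up sperm replicates 1 and 2 and HRCS replicates 1 and 2. The printed promoter window, with 19 CG sites against 17, had 1.08%, 1.17%, 1.28% and 1.28%. The libraries of both fractions were high at the first and near 0% at the second, and the 4 dense windows at Plec promoters lay between 0.597% and 1.33%. The 200 bases of the first are 67% GC with an observed to expected ratio of 0.84, and those of the second 68.5% and 0.81. Base composition was thus close in this pair, which was picked after its values were seen. The other printed pairs were less alike. The methylated and the low window had 60.5% and 0.934 against 67% and 0.848 in Zbtb7a. In B4galnt4 they had 65% and 0.718 against 63% and 0.908.

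Fat1, an atypical cadherin, had 5 methylated coding windows at 97.4% to 98.1% and 3 coding windows at most 25%, with levels of 7.96%, 15.96% and 2.29%. The first and the last methylated windows lay 18547 and 103947 bp from the gene start, and the low ones stood at 76747, 77347 and 118147 bp, so that low windows lay among and beyond the methylated ones. Zbtb7a, a zinc finger repressor, had a run of 4 at 89.99% to 92.5%. Its printed methylated window had 93.2%, 88.6%, 91.7% and 93.3%, and the printed low window, 12831 bp against 8831 bp from the gene start, had 11.04%, 10.8%, 16.3% and 17.5%, with no overlap between the 2 windows in any library. Map1s, a microtubule-associated protein, had 4 at 88.0% to 94.1%, with its promoter windows between 0.758% and 1.66%.

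**Figure D3:**
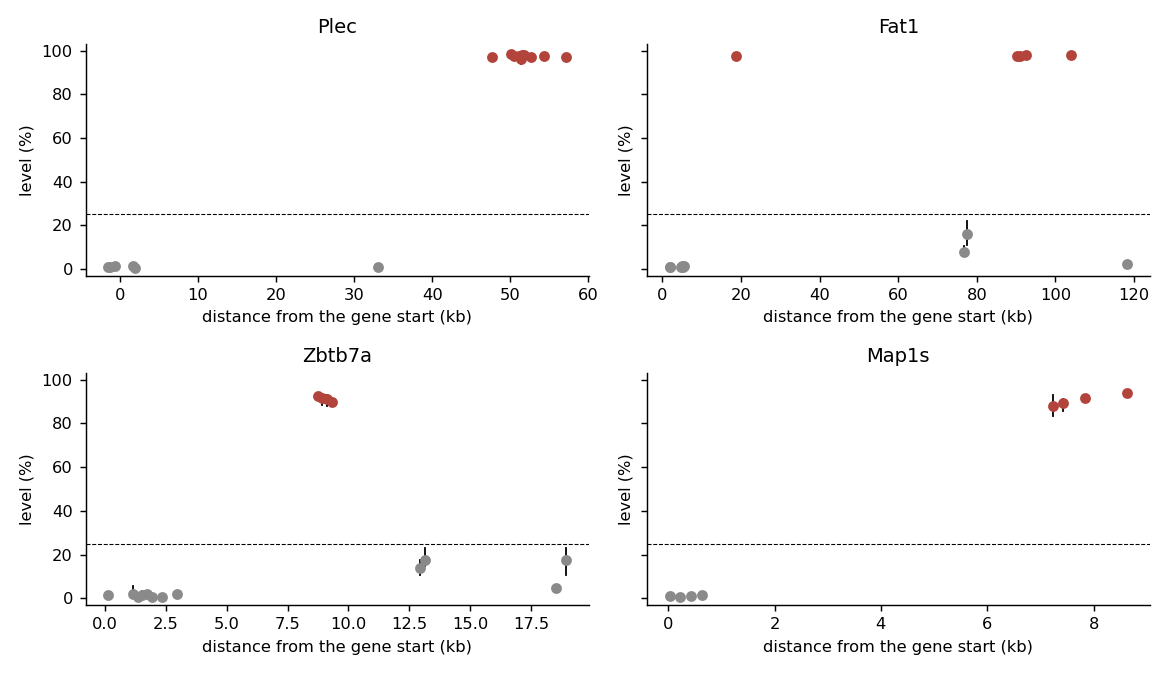
Level (%) of every dense window against its distance from the start of the gene (kb) in Plec, Fat1, Zbtb7a and Map1s. Points are means of 4 libraries, bars the lowest and highest library, red points windows over the dashed line at 25%, and the promoter windows of Plec, Zbtb7a and Map1s lie at or under 2.08%.

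Further genes, chosen after their values were seen, show intermediate forms. Ptprs, a receptor phosphatase, had 3 methylated coding windows at 77.6% to 79.1%, while 4 coding windows nearby had 0% to 1.07%. Mycn, a transcription factor of the Myc family, had coding windows of 73.3%, 45.4% and 28.5%, interleaved with 23.1% and 21.1%, and promoter windows of 0.986% to 1.27%. The window of 28.5% held 26.5% and 46.0% (swim-up sperm), 24.2% and 17.3% (HRCS), a spread that crosses the threshold. A coding window of Klf4, a zinc finger pluripotency factor, had 72.9%, 51.9%, 65.2% and 65.3%, with a dense window of at most 25% only 200 bp away. One in Cdkn2a, a tumour suppressor gene, had 37.3%, 24.2%, 34.7% and 32.4%.

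Promoter windows over 25% were few and varied. The 3 highest of the 23 belonged to Taf1c, a subunit of the RNA polymerase I initiation machinery (97.7%, 4 kept sites), Omp, the olfactory marker protein (95.3%), and Prm1 (93.8%). Prm1 encodes the protamine 1 that replaces histones in sperm. Its window begins 116 bp downstream of the start site and lies inside the gene, which is 492 bp long. No other dense window of Prm1 was kept, so nothing is said of the sequence upstream of its start. The window had 89.3% and 95.7% (swim-up sperm), then 94.5% and 95.5% (HRCS), from 115 to 221 calls, so all libraries were high. Sfi1, a centrin-binding protein, had 2 at 77.3% and 81.4%, at 1064 and 787 reads per kept site. The other 18 lay between 25.8% and 73.4% and included Agrn (73.4%), Tmem235 (70.1%), Maz (42.2%) and Grm4 (33.0% and 36.6%).

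Imprinted genes, germline and spermatid genes and the Hox, protocadherin and histone gene families were read as lists. The background is the 1.22% of all dense windows that were methylated, and with so few windows in each list no list is said to differ from it. The lists were chosen with earlier results of these data known, and a gene was read with 2000 bp on each side. Any control region of imprinting beyond that reach was not read, so the values of imprinted genes do not speak for such regions. Of the paternally methylated imprinted genes, 4 of 7 had dense windows, 20 in all, and 1 of these (5%) was methylated. It is the Dlk1 window in a coding exon, where swim-up sperm had 39.8% and 26.4%, HRCS had 31.6% and 29.2%, so the HRCS libraries lay between the swim-up ones. Dlk1 encodes a ligand related to those of Notch. H19, Meg3 and Gpr1 had no dense kept window. Of the maternally imprinted genes, 14 had 61 dense windows, which had levels of 0% to 2.30%, and none was methylated. The germline genes had 15 dense windows at 0.277% to 2.76%, and histone genes 78 at 0.161% to 3.31%, none of them methylated.

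Of 134 dense windows at Hox genes, 1 (0.746%) was methylated (chr15:102863201-102863400). It lies upstream of the curated start of Hoxc4 but inside the longest extent annotated for the gene, and it had 87.5%, 88.0%, 94.1% and 79.8% from 3 kept sites and 34 to 42 calls. Protocadherin genes had 3 of 108 (2.78%), 2 of them in the alpha cluster, up to 94.0%, and 1 at Pcdh1 (30.1%). The same 2 windows fall within the overlapping extents of Pcdha1 to Pcdha7, so they are not particular to any 1 of these genes. Of the spermatid genes only Prm1 had a dense kept window, described above. In the same imprinted domain as Dlk1, but outside the list and picked after its value was seen, an intron window of the noncoding RNA gene Rian (chr12:110851001-110851200) had 89.0%, 90.2%, 91.0% and 94.2%.

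Most methylated dense windows adjoined no other methylated dense window. Windows that adjoin formed 364 runs, of which 327 were single windows, 25 pairs, 7 runs of 3 and 5 runs of 4. Runs of 2 or more held 91 of the 418 (21.8%). Of the other dense windows 76.1% lay in such runs, up to 13 windows long. Windows directly beside the methylated ones were dense in 17.0%, against 55.3% beside the others, so these shares depend on density as well. A dense window of at most 25% adjoined 22 of the 418, fewer than the 91 that adjoined another methylated one. Joined over gaps of up to 1000, 5000 and 100000 bp, there were 345, 335 and 305 runs.

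The 5 longest runs were 800 bp each. The run in Plec (chr15:76010001-76010800) had 97.4%, the run downstream of Polr1d, a subunit shared by RNA polymerases I and III (chr5:147924201-147925000), 96.4%, and that in Zbtb7a (chr10:80606601-80607400) 91.3%. The other 2 lay on chromosome 12 with no gene assigned (chr12:24319001-24319800, 54.9%, and chr12:19959801-19960600, 38.8%), at 80.2 and 88.2 reads per kept site. Runs of 600 bp in Pheta1 (86.1%), Scaf1 (82.0%) and the RNA-binding protein gene Mex3a (63.2%) and 2 on chromosome 8 (chr8:19892601-19893200, 36.2%, and chr8:19784601-19785200, 34.0%) followed. In the Scaf1 run the libraries had 84.6%, 76.1%, 85.1% and 82.3%, and in the Plec run 97.8%, 97.9%, 97.9% and 96.2%, so the spread was larger at the lower level.

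The spread over chromosomes was uneven. Chromosome 12 held 44 (2.78% of its dense windows), chromosome 10 held 39 (2.28%), and chromosome 1 held 7 (0.363%). Joined over gaps of up to 1 Mb, the region with the most methylated dense windows was on chromosome 10 (chr10:79138201-80883600), with 25 of its 320 dense windows methylated. The Plec region (chr15:75805201-76014200) had 11 of 38, all at 96.3% to 98.3%. A region of 0.236 Mb on chromosome 8 (chr8:19784601-20020400) had 9 of 9, at 25.1% to 42.0%, and 2 on chromosome 12 had 11 of 40 (chr12:18859201-20078000, 29.3% to 52.6%) and 9 of 11 (chr12:23979201-24486000, 27.9% to 63.8%). Members of these last 3 regions were at intermediate levels and high coverage, with medians of 371, 112 and 94.9 reads per kept site.

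The surroundings were methylated as well. A kept window adjoined 360 of the 418, and in 347 of these (96.4%) at least 1 adjoining window was over 25%. The same held for 101 of 33347 other dense windows (0.303%). All 184 of the windows over 75% with a kept neighbour had such a neighbour, and where both sides were kept both were over 25% in 97 of 97. Windows over 25% and up to 75% had one in 163 of 176 (92.6%), and of 108 with both sides kept, 78 had both over 25%, 27 had 1 and 3 had none. Neighbouring windows share reads and are parts of one stretch of DNA, so this is no independent evidence of the level.

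The neighbours were much less dense. Their median was 8 CG sites, against 16 next to the other dense windows, and 17.0% of them were dense against 55.3%. The nearest dense window of at most 25% lay at a median distance of 13300 bp. Within 1000 bp there was one for 38 windows, 37 of which were among those over 25% and up to 75%, and it adjoined in 22, all of that group. Irf2bpl had such a border, where adjoining windows had 48.8%, 25.1% and 15.98%. In Sh2b2 the neighbours of the 25.1% window had 63.7% and 9.23%.

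**Figure D4:**
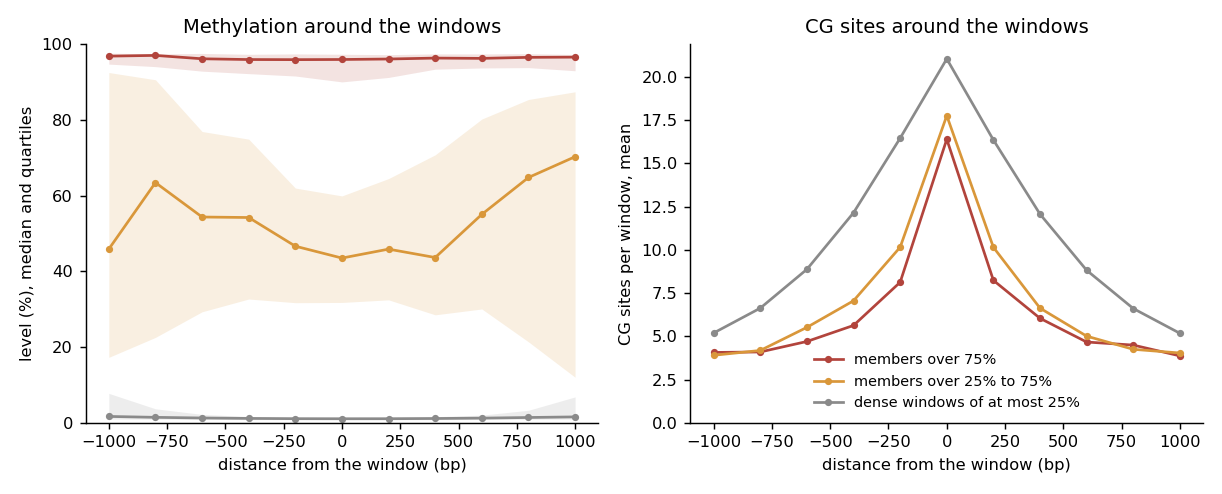
Left, median level (%) with quartiles of kept windows up to 1000 bp on either side of methylated dense windows (members) over 75%, of those over 25 to 75%, and of dense windows of at most 25%. Right, mean number of CG sites per window at the same distances, which falls on both sides of all groups.

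The 418 windows hold 5840 kept sites. Windows are grouped here by the mean of the same site levels, and a mean near 100% leaves little room for sites to vary, so the values by group are a description and their difference is largely set by the grouping. In windows over 75%, 94.8% of sites were over 75%, and the range of site levels within a window had a median of 9.32 points. In windows over 25% and up to 75%, 74.3% of sites were themselves between 25% and 75%, 15.96% were at most 25% and 9.73% over 75%, with a median range of 38.4 points. Only 4 of these 197 windows were mixed, with at least 25% of their sites low and at least 25% high, so intermediate windows were in the main built of intermediate sites.

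The largest ranges came from single sites that stood apart. In Inf2, a formin gene (chr12:113838201-113838400), 13 of 15 sites were over 75% and the lowest was at 0%. An intergenic window that is 100% repeat-masked (chr3:90930801-90931000) had 8 of 9 kept sites over 75% and 1 at 1.32%. The 2 windows of Sfi1 ranged from 3.70% to 95.1% and from 9.63% to 94.5%. In Zfp36l1, a regulator of mRNA decay (chr12:81211201-81211400), 4 sites were low, 7 intermediate and 5 high between 5.53% and 88.3%, a gradual spread with no single site apart. Bases that differ between these mice and the reference at a CG site were not tested.

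Repeated sequence was more common among the methylated windows. Runs of 10 distances between CG sites were looked up across mm9. A run that also occurs elsewhere there was found in 69 of the 418 (16.5%) against 2.78% of the other dense windows. In 21 (5.02%) one was found more than 10 times, against 0.409%. The windows whose runs were found once, 349 in number, had a median level of 80.2%, those found 2 to 10 times 64.5%, and those found more than 10 times 82.0%. Over pseudogenes of the ribosomal protein gene Rps12 the level was not uniform. The Rps12-ps9 window printed above had 97.2%, 98.9%, 94.6% and 98.3%. Windows of Rps12-ps4, Rps12-ps3 and Rps12-ps19 had means of 69.1%, 32.9% and 30.8%. Reads from near-identical copies may be assigned to the wrong one, so the levels of these copies are uncertain.

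The means of the fractions differed by less than the spread between libraries. Over the 418 windows swim-up sperm averaged 70.9% ± 1.63 (SD, n = 2), while HRCS averaged 70.7% ± 0.457 (SD, n = 2), so that HRCS minus swim-up sperm was -0.18 percentage points. Of the windows, 22 (5.26%) had fractions more than 10 points apart, in either direction, against 1.86% of all windows. Between the 2 swim-up replicates 75 (17.9%) were that far apart and between the HRCS replicates 41 (9.81%), and single libraries of different fractions were that far apart in 11.5% to 14.6%. Fraction levels average 2 libraries, so they lie closer than single libraries do by construction. Across the 418 windows, Pearson's r was 0.982 between fractions, 0.958 between swim-up replicates and 0.978 between HRCS replicates, a description that follows in part from the wide range of levels.

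The share of windows far apart follows the level, so it was read by level. Among windows over 25% and up to 75%, 9.64% of the methylated dense ones and 13.97% of the less dense ones had fractions more than 10 points apart, at a median of 480 and 114 calls per library. Over 75% the shares were 1.36% and 1.26%. Of the other dense windows, with levels near 0%, 9 of 33968 (0.0265%) were that far apart. The libraries of the fractions did not overlap in 144 of the 418 (34.4%), 66 with HRCS above and 78 below, against 33.2% of all windows, which is near the background.

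**Figure D5:**
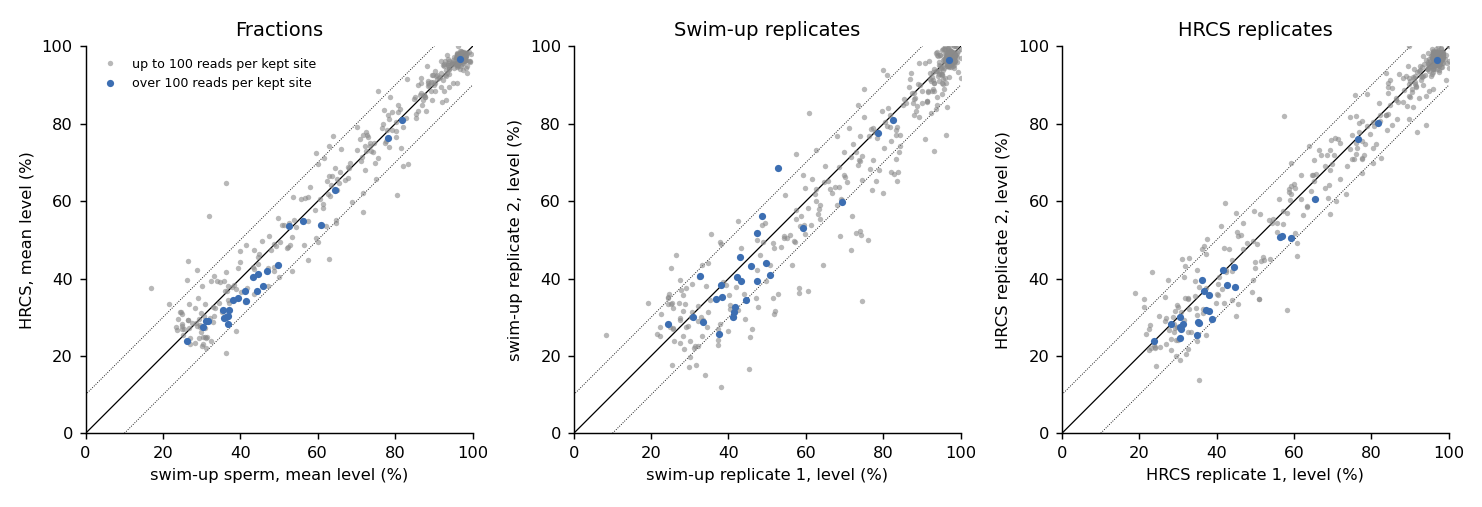
Levels (%) of the 418 methylated dense windows in one preparation against another, for the fraction means and for the replicates of each fraction, with windows of more than 100 reads per kept site in a second colour. The points follow the diagonal, with r of 0.982 between fractions and 0.958 and 0.978 between replicates.

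No methylated dense window passed the test between fractions. The quasi-likelihood test of edgeR, run on calls of either state and adjusted over all 229337 windows, called 6 windows (0.00262%) and 0 of the 418, whose smallest adjusted p was 1. At an unadjusted p under 0.05 there were 15 (3.59%) against 4.47% of all windows. limma on logit levels had a smallest adjusted p of 0.896 over all windows, so it could call none, and 7 of the 418 (1.67%) had an unadjusted p under 0.05 against 5.53% of all windows. Fisher's exact test on calls pooled within a fraction, which ignores how far replicates lie apart, called 48 (11.5%) against 0.789% of all windows. These shares are not at like depth. Median calls per window were 354 to 453.5 by library in the 418 and 130 to 161 in all windows. No background of like depth and level was read for this test. With 2 libraries per fraction, differences within the spread of replicates cannot be seen, and the count of 0 is no proof of equal levels.

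The 5 windows with the smallest unadjusted p are named as not past the threshold. In the methylated window of B4galnt4, a glycosyltransferase gene, swim-up sperm had 32.5% and 40.3% and HRCS 68.7% and 60.8%, on 208 to 244 calls (edgeR, unadjusted p = 0.000999, adjusted p = 1). HRCS libraries lay above both swim-up libraries by more than the replicates of a fraction differed, and the difference of 28.4 points is the largest in size among the 418. The low coding window of the same gene had 0.753%, 0.505%, 0.807% and 0.704%. The pseudogene Gm17709 (chr8:124497801-124498000) had 99.1% and 98.3% against 95.8% and 94.0%, and an intergenic window (chr18:10052001-10052200) 80.5% and 80.3% against 59.2% and 63.8%, lower in HRCS. Srcin1, an inhibitor of Src kinase, had 8.41% and 25.3% against 31.8% and 43.4%, and Ppard, a nuclear receptor, 83.8% and 67.5% against 89.8% and 87.0%, higher in HRCS. In these 4 windows too the libraries of the fractions did not overlap, and adjusted p was 1. Kept sites numbered 12 in B4galnt4, 24 in Gm17709 and 14 in Ppard. Srcin1 and the intergenic window had only 7 each, with 87 to 121 and 111 to 169 calls per library.

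Windows of very high coverage behaved apart from the rest. The limit of 100 reads per kept site was chosen after the values were seen. Above it lay 27 of the 418 (6.46%) against 0.742% of the other dense windows. They lay at 15 places that include the regions on chromosome 8 and chromosome 12, Sfi1 and Polr1d. Also among them were 2 windows near the shared start of Tmem267 and 3110070M22Rik, while the window over that start had 94.5 reads. Their median level was 39.0%, and HRCS was lower than swim-up sperm in 26 of 27, by a median of 3.66 points. Libraries of the fractions did not overlap in 12 of them, all with HRCS below, while 33.2% of all windows had no overlap. At chr8:20019801-20020400, for example, 3 windows had means of 35.9% and 36.9% for swim-up sperm, and of 30.1% and 29.0% for HRCS. At the places on chromosome 12, replicate 2 lay below replicate 1 in both fractions, by more than the fractions differed. Swim-up sperm replicate 2 lay below HRCS replicate 1 there. At chr12:19496401-19496600, for example, swim-up sperm had 41.4% and 31.4%, and HRCS 34.9% and 25.4%. Of the 391 at or under 100 reads, HRCS was lower in 194 (49.6%), and among those without overlap it was below in 66 and above in 66. Above the same limit HRCS was lower in 124 of 252 other dense windows (49.2%). Their median level was 1.48%, which leaves no room for a fall of 3.66 points, so they are no like contrast. HRCS was lower in 172 of 320 less dense windows over 25% and up to 75% (53.8%), whose median level was 52.4%. Without overlap, HRCS was below in 34 and above in 35 of these other dense windows, and in 68 and 59 of the less dense ones. Several of the 27 adjoin at one place and can share reads, so they are not independent, and none passed the adjusted p of edgeR. Fisher's exact test on pooled calls, which ignores the spread of replicates, did call some of them, such as chr8:20019801-20020000 (adjusted p = 3.06e-57). For that window the test of edgeR, which takes in the spread of replicates, gave an unadjusted p of 0.219. The part of copy number or of reads from copies not in the genome build was not tested. Without the 27, the difference of the means over the other 391 was 0.087 points.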

How the data were processed

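TGBS libraries of swim-up sperm and HRCS were captured with a mouse methylation probe set, tagged after bisulfite treatment and sequenced as single reads of 100 cycles. The authors mapped them to mm9 with Bmap (version not given in the sources used here) and deposited, per CG site and strand, raw counts of 2 kinds: the counts of all reads and counts that never exceed them, taken here as methylated reads. With this reading dense windows of maternally imprinted genes were at 0% to 2.30%. The text of the study names no removal of duplicates.

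Strands were added, and an autosomal CG site was kept where every library had 10 or more reads. Windows of 200 bp start at position 1. The level is the mean of site levels. mm9 coordinates are those of the deposited tables. The genome used for annotation is GRCm38 (RefSeq), in which dense windows were located by a unique exact match of the distances between their CG sites, with no conversion of coordinates. The class for pseudogenes and the use of the nearest start site were settled while the results were being looked at.

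Fractions were compared with the quasi-likelihood test of edgeR 4.0.16, run in R 4.3.3 on calls of either state per window, with a term for each library, 1 dispersion, and Benjamini-Hochberg adjustment over all 229337 windows at 0.05. The test was checked on simulated libraries with the replicate spread of the real ones by level, where windows of intermediate level were changed by a smaller or a larger shift. edgeR recovered nearly all of the larger changes and a minority of the smaller ones, and limma recovered none. On the logit scale even the smaller shift exceeded the difference at B4galnt4 (36.4% in swim-up sperm, 64.8% in HRCS). The check therefore says little of differences of that size or less. Earlier simulations used a single spread picked by hand. edgeR recovered none in the first and most changes in the next, in which the spread was made narrower and the changes larger at once. The test was not changed. Alternatives were other minimums, window starts, thresholds, tests and single libraries left out. Windows were named by a rule: the highest and lowest levels, the longest runs, the most CG sites, the smallest p, the largest ranges of sites, and genes of fixed lists. Outside the rule, Fat1 and Map1s as whole genes, Ptprs, Mycn, Klf4, Cdkn2a, Rian, the promoter windows other than Prm1, the Rps12 pseudogenes, the windows of very high coverage and the printed sequences were picked after their values were seen. The members and lists were chosen with earlier results of these data known. Further software was limma 3.58.1, pandas 2.3.3 and numpy 2.4.6 under Python 3.11.15, scipy 1.17.1, and matplotlib 3.10.9 for plots.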

Additional observations from a re-analysis of the deposited data

How the results depend on the processing

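Of 59 alternative values, 40 stayed within the spread of the main one (counts within 1.5 times) and 19 moved. The number of methylated dense windows was 418, and 266 with 20 reads per site, 1506 with 12 or more CG sites and 56 with 20 or more CG sites. Counts within 1.5 times of it included 511 with 5 reads, 333 with 10 kept sites and 299 at a level over 50%. Leaving out each library gave 416 to 432. Swim-up sperm alone gave 437, which hold 408 of the 418 (97.6% of them and 93.4% of the 437), and HRCS alone 451, which hold 405 (96.9% and 89.8%). Runs numbered 228 with 20 reads. The share with a methylated neighbour was 76.4% when a neighbour had to be over 50%. The difference of the means ran from -1.33 to 0.97 points when a library was left out, which changes its sign but stays near the SD of 1.19 between library means; it is positive without swim-up sperm replicate 1 (0.97) and without HRCS replicate 2 (0.144). Windows over 10 points apart numbered 35 with 5 reads, 12 among windows with 10 or more kept sites (an alternative added after the data were seen), and 31 to 44 when a library was left out, where 1 fraction is a single library.

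Over all windows, 6 passed edgeR's test, 3 did with 20 reads, 1809 with Fisher's exact test on pooled calls, 0 with limma on logit levels (12690 at an unadjusted p under 0.05, smallest adjusted p 0.896, so it says nothing of the 418) and 0 to 3 when a library was left out, the lone library being assumed to vary like the others. Of the 418, 0 passed in every one of these but Fisher's exact test, with 48. With the replicate block 12 windows and 0 of the 418 passed. In the labels the replicates share only a number. The deviations of same-numbered libraries had r of 0.00137 over all windows and 0.105 over the 418, so the pairing was not used. At the places of high coverage on chromosome 12, though, replicate 2 lay below replicate 1 in both fractions. At 10 reads a single read moves a site by 10 points, and windows with few kept sites are the least certain.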
